A study of Mus musculus with 10 samples.

Results

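The genes described here encode the nuclear subunits of the oxidative phosphorylation machinery, measured as mRNA in mouse colon. They were chosen by symbol alone: every protein-coding gene whose symbol starts Ndufa, Ndufb, Ndufc, Ndufs or Ndufv plus a digit, the 4 Sdh genes, and genes starting Uqcr, Cox4 to Cox8, or Atp5. Of 87 symbols that fit this rule, 84 had a value among the 23488 genes of the table, and Ndufb1, Ndufb4b and Ndufb4c were not analysed here. By symbol, 37 were assigned to complex I, 4 to complex II, 8 to complex III, 18 to complex IV and 17 to complex V. The complex I figures thus include Ndufa4, since found as a subunit of complex IV, and its paralog Ndufa4l2. The filter on low values (at least 1 FPKM in at least 2 libraries; FPKM is the fragment count scaled for transcript length and library size) was passed by 81 of them. The other 3 were all complex IV isoforms: Cox7b2 and Cox8c were listed at 0 in every library, and Cox6a2 reached at most 0.620 FPKM. Subunits encoded in the mitochondrial genome were not analysed here.

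Complex I (NADH dehydrogenase), complex II (succinate dehydrogenase), complex III (cytochrome bc1) and complex IV (cytochrome c oxidase) pass electrons from fuel to oxygen in the inner mitochondrial membrane, and I, III and IV pump protons as they do so. Complex V, the ATP synthase, lets the protons back in and makes ATP. Differentiated colonocytes burn butyrate made by the gut bacteria through this chain, and muscle, nerve and brown fat are also rich in it. Complex IV and complex V have subunits with more than one gene, some of them restricted to muscle, testis or low-oxygen states.

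The 10 libraries came from C57BL/6 mice in 5 groups of 2, all fed the AIN-93M diet. Control mice were injected with saline at 6 weeks of age and had no DSS. In the other 4 groups the mice were injected under the skin with azoxymethane (AOM, a colon carcinogen) at 10 mg/kg at the same age, and 1 week later drank the colitis-inducing agent dextran sulfate sodium (DSS) at 1.2% for 7 days. Model mice had no further treatment, ASA mice had 0.02% aspirin in the diet, CUR mice had 2% curcumin, and ASA+CUR mice had 0.01% aspirin with 1% curcumin. For the age at tissue collection, no value was given in the sources used here. The labels call the Control libraries colonic tissue and the other 8 tumor samples, whereas the protocol describes colon left after palpable tumors were taken off. Treatment and tissue label therefore cannot be told apart in any comparison with Control. Whether libraries of the same group came from separate mice is not stated in the labels, so each p-value measures only the spread between these libraries.

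Summed FPKM ran from 515959 to 720895 and genes at 1 FPKM or more from 12781 to 13283 per library; the read depth behind them is unknown. One library stood apart for these genes: CUR replicate 0 was higher than CUR replicate 1 for 76 of 81 subunit genes (median difference 0.66 on the log2(FPKM + 1) scale), against a median difference of -0.05 to 0.24 between the replicates of the other groups. CUR replicate 0 also held the highest summed FPKM of 5 general epithelial markers (7810, against 3446 to 5313 in the other 9 libraries). Results that include it are given with and without it.

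The subunit genes were lower in Model than in Control colon. Summed over all members, they reached 37824 and 34146 FPKM in the 2 Control libraries and 22474 and 18988 FPKM in the 2 Model libraries. As a share of all FPKM that was 5.25% and 5.34% in Control and 3.87% and 3.43% in Model. Both Model libraries lay below both Control libraries for 78 of 81 tested members, an order found for 32.2% of all tested genes, with the exceptions of Cox4i2, Cox6b2 and Ndufa4l2. In limma's moderated test on log2(FPKM + 1), with Benjamini-Hochberg adjustment over 14061 genes, 33 of 81 members fell and 0 rose, where 9.34% of all tested genes fell and 6.84% rose. At an unadjusted p under 0.05, 71 members were lower and 1, Ndufa4l2, was higher, where 16.9% and 14.9% of all tested genes were. The median difference of the members was -0.78 (1.72-fold lower) and that of all tested genes 0.02.

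With so few libraries the number of calls depended on single ones. The share of all tested genes that passed in fits without a library is not given here. The numbers of members that passed in them therefore only show this dependence. Without either Control library the only member that passed was Cox7a1, and without Model replicate 1 it was Cox7a1 and Sdhb. Without Model replicate 0, 19 members passed as lower and 2 as higher, Cox4i2 and Ndufa4l2. Leaving out a library outside the 2 groups also moved it, through the shared estimate of the spread: 66 members passed without CUR replicate 0, the same number without CUR replicate 1, and 17 without either ASA+CUR library. The direction was the same in 4 of 4 comparisons with Control, although these share their Control libraries. The 8 AOM/DSS libraries were all below both Control libraries for 54 of 81 members (66.7%), an order found for 20.3% of all tested genes. Without CUR replicate 0 it held for 78 members (96.3%), against 25.0% of all tested genes.

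**Figure D1:**
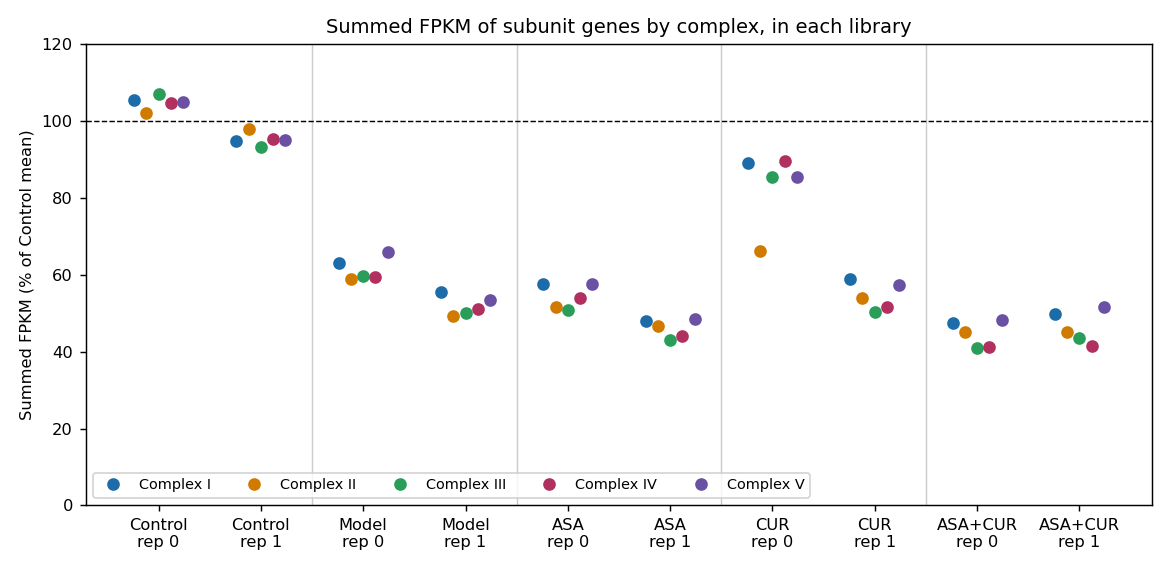
Summed FPKM of the subunit genes of each complex in each library, as a percentage of the mean of the 2 Control libraries (dashed line at 100). Points are single libraries, and 7 of the 8 AOM/DSS libraries lie between 41.0% and 65.8% for every complex, while CUR replicate 0 reaches 85.3% to 89.7% for all complexes but complex II (66.3%).

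The decrease had a like size in all 5 complexes. Relative to the Control mean, the summed FPKM of the Model group was 59.2% for complex I, 54.2% for complex II, 55.0% for complex III, 55.2% for complex IV and 59.6% for complex V. The make-up of the total moved little: complex V held 34.3% of the members' FPKM in Control and 35.4% in Model, and complex I held 23.8% and 24.5%. By test, 15 of 37 complex I genes fell (median -0.75), 4 of 4 in complex II (median -0.83), 5 of 8 in complex III (median -0.83), 5 of 15 in complex IV (median -0.87) and 4 of 17 in complex V (median -0.80). Of all tested genes 9.34% fell in Model. The complexes differed more in how many genes passed than in their medians. Among members with transcripts of at least 1000 bases 15 of 24 passed, and among shorter ones 18 of 57. In bulk tissue, fewer cells rich in mitochondria and less subunit mRNA per cell cannot be told apart.

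**Figure D2:**
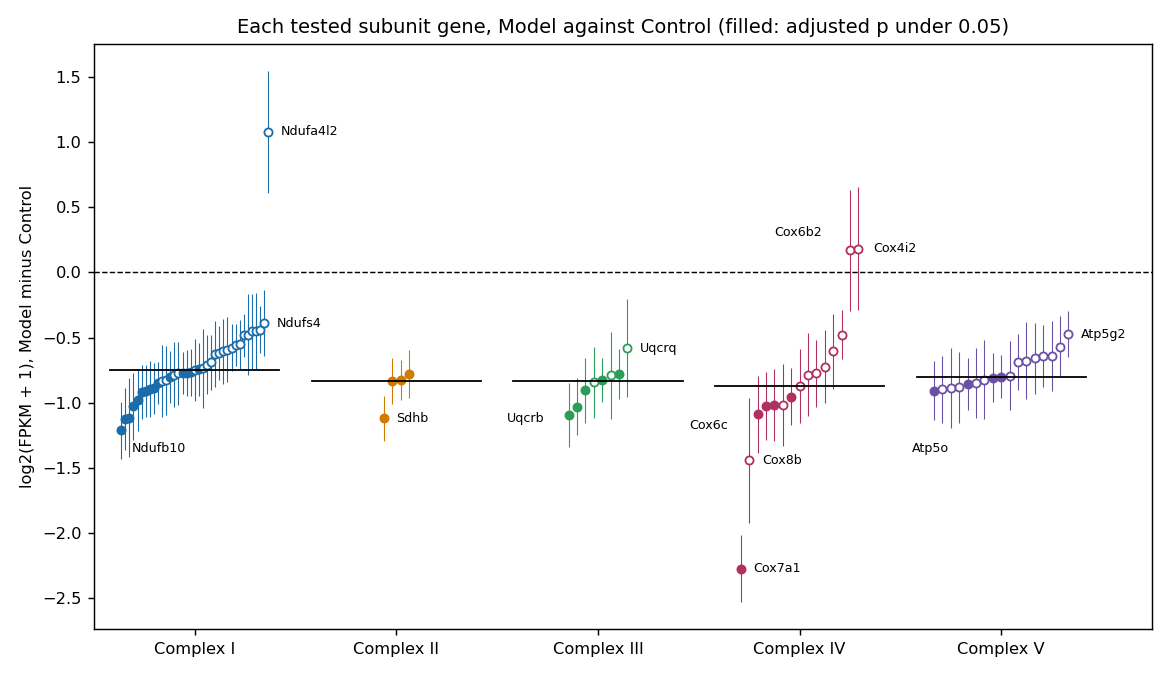
Difference in log2(FPKM + 1), Model minus Control, for each of the 81 tested subunit genes, ordered within its complex. Bars are 1 standard error from limma, filled points passed an adjusted p of 0.05, and the black line is the median of the complex; 78 points lie below 0, and Cox7a1 is the lowest at -2.27.

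Promoter sequences are shown for 1 gene of each complex that fell or lay lower in Model, and for Cox7a1 and Cox7a2, the isoform pair that moved by unequal amounts. The gene of each complex was picked among members with a motif match in the window shown, as the one with the lowest difference. These windows were thus chosen for their matches and do not stand for all members, of which 26 of 68 held a match in the longer stretch described below. Each is the 120 bases before the RefSeq start site on GRCm38.p6, written 5′ to 3′ along the gene. Capitals mark letters that match 1 of 4 searched motifs on either strand. These were NRF1 (GCGCNT directly followed by GCGC), ETS/GABPA (CCGGAAG), YY1 (AANATGGC) and ERRA (AAGGTCA), named after factors known to act on genes for mitochondrial proteins. The Ndufb5 window ends just inside the annotated gene, and the Cox7a2 window lies within the annotated span of its gene, of which another transcript starts further upstream.
Ndufb5 (complex I, chr3:32736943-32737062, plus strand): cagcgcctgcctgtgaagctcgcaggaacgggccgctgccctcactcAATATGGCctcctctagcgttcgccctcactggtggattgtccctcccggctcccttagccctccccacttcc
Sdha (complex II, chr13:74350241-74350360, minus strand): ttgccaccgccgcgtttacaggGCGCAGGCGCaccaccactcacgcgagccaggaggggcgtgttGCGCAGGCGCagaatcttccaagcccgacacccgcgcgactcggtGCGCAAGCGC
Uqcrh (complex III, chr4:116075071-116075190, minus strand): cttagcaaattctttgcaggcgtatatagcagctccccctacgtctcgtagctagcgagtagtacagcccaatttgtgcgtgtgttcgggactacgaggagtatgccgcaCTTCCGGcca
Cox6a1 (complex IV, chr5:115348959-115349078, minus strand): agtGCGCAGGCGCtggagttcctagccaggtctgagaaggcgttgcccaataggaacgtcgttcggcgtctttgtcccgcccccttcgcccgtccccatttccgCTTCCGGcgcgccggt
Atp5k (complex V, chr5:108434400-108434519, minus strand): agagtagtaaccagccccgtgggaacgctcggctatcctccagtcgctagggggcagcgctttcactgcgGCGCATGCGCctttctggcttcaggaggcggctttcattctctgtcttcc
Cox7a1 (complex IV, chr7:30184051-30184170, plus strand): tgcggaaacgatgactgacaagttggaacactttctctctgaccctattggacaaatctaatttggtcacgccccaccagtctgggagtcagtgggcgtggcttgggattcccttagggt
Cox7a2 (complex IV, chr9:79759854-79759973, minus strand): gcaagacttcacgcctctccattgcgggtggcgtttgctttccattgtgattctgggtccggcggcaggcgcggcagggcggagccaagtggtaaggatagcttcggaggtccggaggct

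Sdha shows 3 matches to the NRF1 letters in 120 bases, Cox6a1 shows an NRF1 and an ETS/GABPA match, and Cox7a1 and Cox7a2 show none of the 4 in this window. Over the 250 bases before the start, 68 members had a sequence in the RefSeq table. The NRF1 letters occurred in 12 of the 68 (17.6%), against 5.30% of 17492 protein-coding promoters and 7.75% of the promoters of tested genes. The ETS/GABPA letters occurred in 16.2% of members, 9.13% of all promoters and 13.0% of those of tested genes. For YY1 these shares were 5.88%, 3.74% and 4.15%, and for ERRA 7.35%, 3.58% and 2.83%. Motifs were counted separately, and 26 members (38.2%) held at least 1, against 19.7% of all promoters and 24.8% of those of tested genes. The median GC content was 56.2% for members, 55.2% for all promoters and 59.6% for those of tested genes. The median Model minus Control change of members was -0.78 for the 12 genes with the NRF1 letters and -0.79 for the 55 tested genes without them. It was -0.78 and -0.79 with and without ETS/GABPA, -0.83 and -0.78 with and without YY1 (4 genes with it), and -0.77 and -0.78 with and without ERRA. These are descriptions of letters in a window, with no test.

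Complex I takes electrons from NADH through a peripheral arm of core subunits, around which accessory subunits are packed. Of its 7 nuclear core genes 4 fell in Model, Ndufs1, Ndufs7, Ndufv1 and Ndufv2. Of 30 accessory genes 11 fell, where 9.34% of all tested genes fell. The medians of core and accessory genes were -0.74 and -0.76. Ndufs1, the largest iron-sulfur subunit of the core (chromosome 1, 63143592 to 63176822, GRCm38), had 82.2 and 84.8 FPKM in Control. It had 56.0 and 35.2 in Model, 41.2 and 43.0 in ASA, 35.9 and 44.6 in CUR, and with the combination 41.7 and 45.6. All 8 AOM/DSS libraries were below both Control libraries, and Ndufs1 was no higher in CUR replicate 0 than in the rest (Model minus Control -0.90 ± 0.22 SE, limma adjusted p = 0.0292).

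The accessory gene with the lowest difference was Ndufb10, a subunit of the membrane arm (chromosome 17, 24722060 to 24724423). It measured 372 and 368 FPKM in Control, 168 and 151 in Model, 176 and 120.4 in ASA, 233 and 168 in CUR, and with the combination 135 and 131. The groups did not overlap with Control, and Ndufb10 was 2.32-fold lower in Model (-1.21 ± 0.22 SE, limma adjusted p = 0.0107). Ndufb9, another membrane-arm subunit, followed with 593 and 536 FPKM in Control and 278 and 239.7 in Model (-1.12, limma adjusted p = 0.0195). Ndufa5, an accessory subunit of the peripheral arm, had 195 and 159 FPKM in Control and 83.0 and 78.9 in Model (-1.11, limma adjusted p = 0.0421). In CUR replicate 0 Ndufa5 was 151 FPKM, close to the lower Control library. Apart from Ndufa4l2, the gene with the smallest decrease was Ndufs4, an accessory subunit, with 75.4 and 63.1 FPKM in Control and 57.6 and 47.8 in Model, and it did not pass (-0.39 ± 0.26 SE, limma adjusted p = 0.342).

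Ndufa4l2 had the highest difference of any member (1.08 ± 0.47 SE) and did not pass (limma adjusted p = 0.157). It is a paralog of Ndufa4 known to be induced under low oxygen. Ndufa4l2 measured 2.27 and 2.14 FPKM in Control, 2.97 and 10.6 in Model, 5.55 and 5.34 in ASA, 4.07 and 1.82 in CUR, and with the combination 4.32 and 3.83. It was above both Control libraries in 7 of the 8 AOM/DSS libraries, CUR replicate 1 being the exception, and a single library gave the Model mean its height; without Model replicate 0 its difference was 1.86 and it passed (limma adjusted p = 0.0216). Ndufa4, first described in complex I and since found as a subunit of complex IV, had 631 and 548 FPKM in Control and 494 and 377 in Model, and did not pass (-0.45, limma adjusted p = 0.338). Ndufa4l2 thus stayed a small fraction of Ndufa4, at 0.360% and 0.390% in Control and 0.408% to 2.81% in the AOM/DSS libraries.

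Complex II links the citrate cycle to the chain and is the only complex with no subunit from the mitochondrial genome. All 4 of its genes fell in Model. Sdhb, the iron-sulfur subunit (chromosome 4, 140961271 to 140979198), had 308 and 293 FPKM in Control, 150.0 and 126 in Model, 137 and 119 in ASA, 186 and 146 in CUR, and with the combination 109.6 and 121. Every AOM/DSS library was well below both Control libraries (Model minus Control -1.12 ± 0.17 SE, limma adjusted p = 0.00572). The flavin-carrying subunit Sdha had 197 and 224 FPKM in Control and 132 and 106 in Model (-0.83 ± 0.16 SE, limma adjusted p = 0.0122). Sdha was 107 FPKM in CUR replicate 0, so the library that was high for most members was not high for this one. The membrane anchors Sdhc and Sdhd fell by 0.83 and 0.78 (limma adjusted p = 0.0185 and 0.0262), Sdhc from 284 and 258 FPKM to 161 and 142, and Sdhd from 375 and 342 FPKM to 229 and 189.

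Complex III passes electrons from ubiquinol to cytochrome c. Uqcrb, a subunit near the quinone site (chromosome 13, 66900576 to 66905350), had 732 and 698 FPKM in Control and 356 and 315 in Model (-1.09 ± 0.25 SE, limma adjusted p = 0.0234). Uqcrb was 563 FPKM in CUR replicate 0 and 263 to 327 in the other 5 treated libraries. Uqcrfs1, the Rieske iron-sulfur protein, had 253 and 237 FPKM in Control and 139 and 103 in Model (-1.03, limma adjusted p = 0.0194). The hinge protein gene Uqcrh was the most abundant of the complex in Control, at 1193 and 979.8 FPKM, and had 588 and 565 in Model (-0.91, limma adjusted p = 0.0436). Both core genes, Uqcrc1 and Uqcrc2, also fell. Uqcrq changed least, from 525 and 384 FPKM to 337 and 267, and did not pass (-0.58 ± 0.38 SE, limma adjusted p = 0.336). Its Control libraries were themselves far apart. For cytochrome c1 (Cyc1), left out by the symbol rule, and cytochrome c (Cycs), 0 of 2 passed and 1 had an unadjusted p under 0.05: Cyc1 had 399 and 374 FPKM in Control and 258 and 181 in Model (limma adjusted p = 0.0565).

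Complex IV held the gene with the largest decrease of all members. Cox7a1, the heart and muscle isoform of subunit VIIa (chromosome 7, 30184171 to 30186030), had 190.5 and 197 FPKM in Control, 43.2 and 35.6 in Model, 40.2 and 27.8 in ASA, 82.6 and 51.9 in CUR, and with the combination 41.8 and 33.7. All AOM/DSS libraries were at less than the lower Control value by a wide gap, and the 2 Control libraries were close together. In Model Cox7a1 was 4.84-fold lower (-2.27 ± 0.26 SE, limma adjusted p = 0.00183), and it passed in all 4 comparisons with Control. In Model against Control it also passed without each of the 4 libraries in turn (limma adjusted p from 0.0106 to 0.0284). The widely expressed isoform Cox7a2 had a smaller difference, from 452 and 376 FPKM to 226 and 183 (-1.02, limma adjusted p = 0.0426). Cox7a1 therefore stood at 42.2% and 52.3% of Cox7a2 in Control, and at 16.6% to 25.8% in the 8 AOM/DSS libraries, which did not overlap. The related gene Cox7a2l had 297 and 319.8 FPKM in Control and 205 and 237 in Model, and did not pass (-0.48, limma adjusted p = 0.122).

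**Figure D3:**
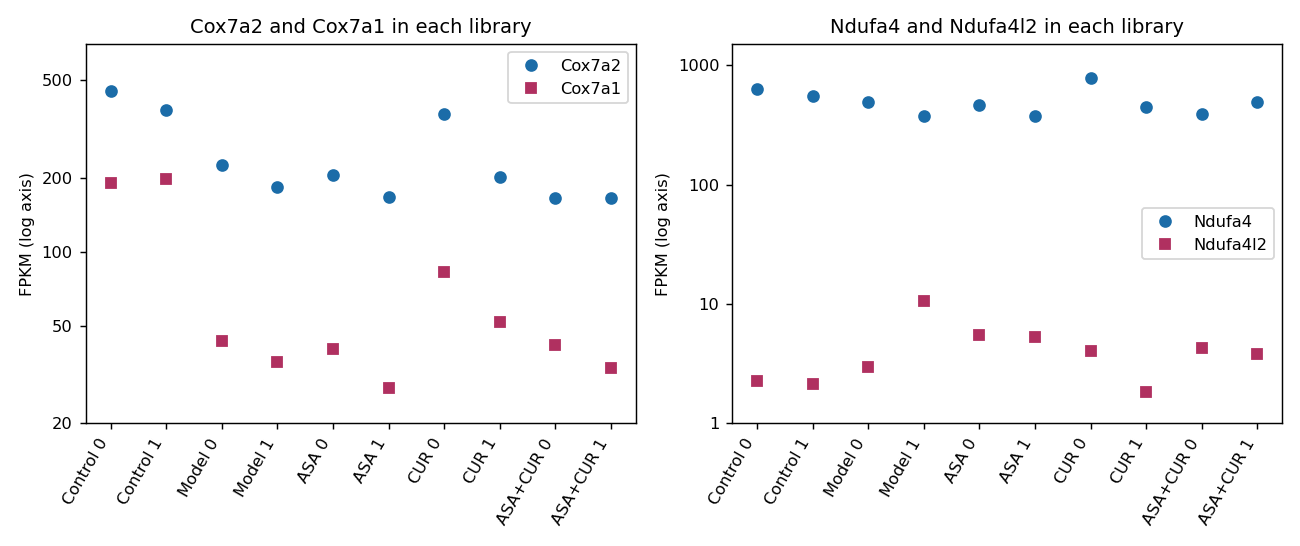
FPKM (log axes) of 2 isoform pairs in each library: Cox7a2 and Cox7a1 on the left, Ndufa4 and Ndufa4l2 on the right. Cox7a1 falls from 190.5 and 197 in Control to 27.8 to 82.6 in the AOM/DSS libraries, a larger step than that of Cox7a2; Ndufa4l2 stays between 1.82 and 10.6 throughout.

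Markers of muscle were measured in the same libraries. Of 10 smooth muscle markers 10 fell in Model (median -2.94), and their summed FPKM was 8909 and 5417 in Control and 285 to 878 in the AOM/DSS libraries, with none at 0. Among the AOM/DSS libraries CUR replicate 0 had the lowest smooth muscle sum (285) and the highest Cox7a1 (82.6). Cox7a1 has a transcript of 393 bases. In CUR replicate 0, genes other than the subunits below 500 bases, with a mean log2 value over 4, had a median difference from Control of 0.78. Of the striated muscle list 4 of 7 markers were tested and 2 fell, among them Ckm, with 35.9 and 20.7 FPKM in Control and 1.72 and 1.74 in Model. The other 2 had positive differences and did not pass, among them Acta1, with 4.14 and 2.99 FPKM in Control and 9.94 and 27.7 in Model (1.97 ± 0.83 SE, limma adjusted p = 0.146). The summed striated list was 27.2 to 44.3 FPKM in Control and 3.33 to 31.5 in the AOM/DSS libraries. The fast fiber genes Myh1 and Myh2 were at or near 0 in all libraries. Of 7 fat markers 4 were tested and 3 fell (sum 126 and 121 FPKM in Control, 12.1 to 109 in the AOM/DSS libraries). Most of that sum was Fabp4, which did not pass (86.4 and 76.6 FPKM in Control, 11.9 to 108 in the AOM/DSS libraries). The 3 that fell, Adipoq, Retn and Cfd, were at most 1.04 FPKM in the AOM/DSS libraries. Ucp1, the brown fat uncoupler, was at 0 in 9 of 10 libraries. All 3 enteric neuron markers fell. The part of these cell types in the decrease of Cox7a1, or of the other members, was not tested.

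The other isoforms of complex IV divided into abundant and near-absent genes. Cox4i1, the main form of subunit IV, fell from 1401 and 1377 FPKM to 761 and 675 (-0.95, limma adjusted p = 0.025). Its low-oxygen and lung isoform Cox4i2 had 1.92 and 2.69 FPKM in Control and 1.06 and 5.74 in Model (0.18 ± 0.48 SE, limma adjusted p = 0.834), and its difference was -0.67 without Model replicate 1 and 1.04 without Model replicate 0, where it passed as higher (limma adjusted p = 0.0488). Cox6c, which has a single gene, fell from 1146 and 929 FPKM to 511 and 458 (-1.09, limma adjusted p = 0.0436). Cox7b fell as well, from 375 and 328 FPKM to 194 and 152 (-1.03, limma adjusted p = 0.0336).

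Cox6a1, Cox6b1 and Cox8a, the widely expressed forms, lay lower in both Model libraries without passing. Cox6a1 had 1408 and 1333 FPKM in Control and 878 and 719 in Model (limma adjusted p = 0.135), and its muscle isoform Cox6a2 was at 0 in both Control libraries. Cox6b1 had 1115 and 1028 FPKM in Control and 647 and 603 in Model (limma adjusted p = 0.0818). Its testis isoform Cox6b2 had 7.17 and 4.69 FPKM in Control and 6.81 and 6.54 in Model (0.17 ± 0.46 SE, limma adjusted p = 0.844), and without Control replicate 1 its difference was -0.091. Cox8a had 1206 and 1109.8 FPKM in Control and 835 and 691 in Model (limma adjusted p = 0.197). Cox8b, the muscle and brown fat form, had 1.74 and 3.63 FPKM in Control and 0 and 0.717 in Model, and did not pass (limma adjusted p = 0.0805).

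Complex V consists of a catalytic F1 head, a rotor that includes a ring of subunit c, a peripheral stalk that holds the head still, and further membrane subunits. The stalk genes passed most often, 3 of 4 (Atp5o, Atp5pb and Atp5h), then 1 of 5 in F1 (Atp5c1, the central shaft), 0 of 3 for subunit c and 0 of 5 for the other membrane subunits. Beside these counts, 9.34% of all tested genes fell. All 17 genes had a negative difference, so the counts by sector do not show that the sectors moved differently, and that was not tested. Atp5o, the stalk subunit that grips the head (chromosome 16, 91925223 to 91931630), had 577 and 594 FPKM in Control, 342 and 284 in Model, 351 and 266 in ASA, 441 and 303 in CUR, and with the combination 269 and 287. Its groups did not overlap with Control (Model minus Control -0.91 ± 0.23 SE, limma adjusted p = 0.0325). The small membrane subunits Atp5j2 and Atp5k had like differences but larger spread. Atp5j2 had 851 and 714 FPKM in Control and 433 and 403 in Model (-0.90, limma adjusted p = 0.0505), and Atp5k had 1418 and 1162 FPKM in Control and 746 and 643 in Model (-0.89, limma adjusted p = 0.0891).

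Subunit c has 3 genes that encode the same mature protein behind different import signals. Atp5g3 was the most abundant, at 1358 and 1197 FPKM in Control and 871 and 596 in Model (-0.82, limma adjusted p = 0.106). Atp5g1 had 504 and 446 FPKM in Control and 296 and 223 in Model (-0.88, limma adjusted p = 0.0639). Atp5g2 had 593 and 575 FPKM in Control and 433 and 407 in Model, the smallest difference of complex V (-0.47 ± 0.18 SE, limma adjusted p = 0.112). As shares of the summed subunit c FPKM, Atp5g2 was 24.2% and 25.9% in Control and 26.6% to 33.2% in the AOM/DSS libraries, whereas Atp5g1 was 20.5% and 20.1% in Control and 15.5% to 18.5% in them. Neither share overlapped with Control. These genes have near-identical processed copies in the genome, and how reads were split between them is uncertain.

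Other mitochondrial genes were read beside the subunits, and their counts beside the 9.34% of all tested genes that fell. Of 13 citrate cycle genes 9 fell in Model and 0 rose (median -0.75), close to the subunits' median: Suclg1, which makes GTP or ATP from succinyl-CoA, went from 286 and 299 FPKM to 154 and 107 (-1.18, limma adjusted p = 0.00556). Ogdh and Idh3b, dehydrogenases that supply NADH, fell by 0.81 and 0.76 (limma adjusted p = 0.00735 and 0.00883). Among 8 genes of pyruvate entry 3 fell (median -0.51), the pyruvate carrier gene Mpc1, Pdha1 and Pdk2. Pdk2 encodes a kinase that inhibits pyruvate dehydrogenase, so the genes that moved do not share 1 direction of action. Among 9 carriers and pores 1 fell, Vdac3 (214 and 228 FPKM in Control, 124 and 108 in Model).

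Of 40 assembly factors, which build the complexes, 4 fell (10.0%, close to the share of all tested genes), with a median of -0.33, and 15 were lower at an unadjusted p under 0.05. Surf1 and Cox10, both needed to build complex IV, fell by 0.74 and 0.83 (limma adjusted p = 0.0315 and 0.0381). Of 78 mitochondrial ribosome genes 2 fell (median -0.15). Of 67 cytosolic ribosome genes 0 passed and 0 had an unadjusted p under 0.05 (median -0.05). Of 4 antioxidant genes 0 passed and 2 were lower at an unadjusted p under 0.05, and the uncoupling gene Ucp2 had 151 and 171 FPKM in Control and 173 and 169 in Model.

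Of 13 regulators of mitochondrial genes 2 fell and 0 rose (median -0.04), and 3 were lower and 1 higher at an unadjusted p under 0.05. The lowest difference of the list, -1.43, belonged to a gene that did not pass. Ppargc1b, a coactivator that drives mitochondrial biogenesis, had 8.05 and 9.97 FPKM in Control and 3.30 and 2.80 in Model, with 1.59 to 4.09 in the 6 treated libraries (Model minus Control -1.30 ± 0.23 SE, limma adjusted p = 0.00979). Esrra, the nuclear receptor it acts with, had 93.9 and 89.6 FPKM in Control and 55.5 and 47.7 in Model (-0.82 ± 0.19 SE, limma adjusted p = 0.0277). Esrra was 85.0 FPKM in CUR replicate 0. The related coactivator gene Pprc1 had 10.5 and 9.44 FPKM in Control and 16.3 and 12.5 in Model, and did not pass (0.48, limma adjusted p = 0.0795).

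**Figure D4:**
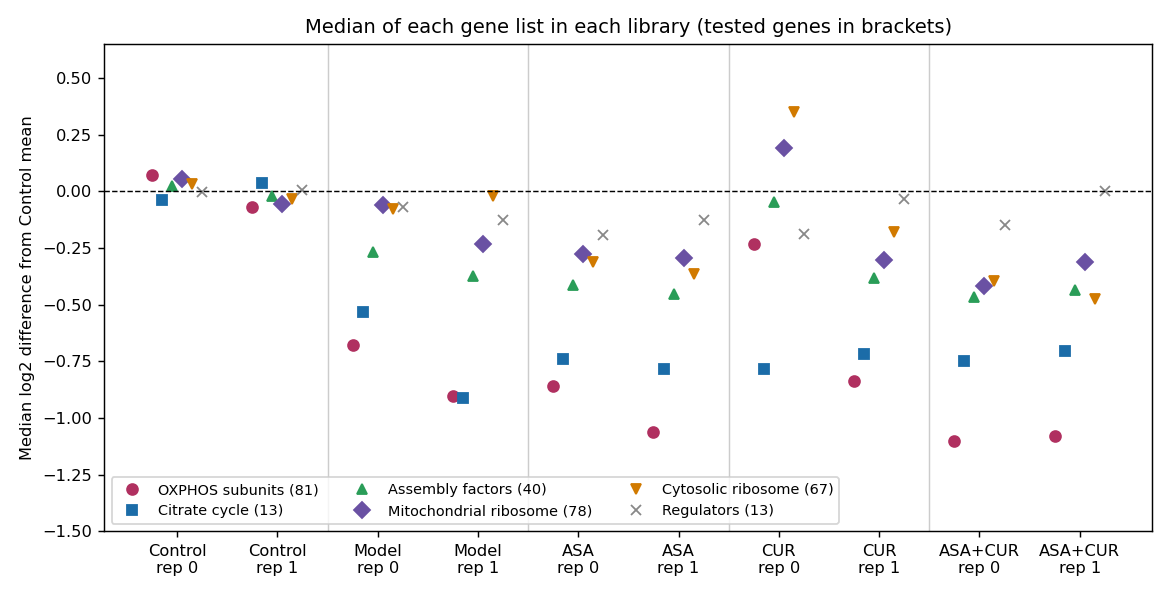
Median difference from the Control mean on the log2(FPKM + 1) scale for each gene list in each library, with the number of tested genes in brackets. The subunit genes lie at -0.68 to -1.10 in the 7 AOM/DSS libraries other than CUR replicate 0 and at -0.23 in that library, whereas the citrate cycle genes lie at -0.53 to -0.91 in all 8.

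Markers of the epithelium were measured in the same way. The 5 general epithelial markers had a median difference of -0.25 in Model, and 0 passed and 0 had an unadjusted p under 0.05; their summed FPKM was 4847 and 5313 in Control and 3446 to 4992 in Model. Of 6 absorptive colonocyte markers 3 fell, Aqp8, Car4 and Slc26a3, and the list summed to 2723 and 2796 FPKM in Control and to 780.3 and 1274 in Model. In CUR replicate 0 this sum was 4084 FPKM, of which Car1 gave 2215. All 3 tested goblet cell markers fell. Of 4 tested leukocyte markers 1 rose, the neutrophil gene S100a8, and the list summed to 21.9 and 15.9 FPKM in Control and 60.9 to 282 in the AOM/DSS libraries. The 5 squamous epithelium markers summed to 1.54 and 0.806 FPKM in Control and 12.4 to 748 in the AOM/DSS libraries. Pericyte markers had 0 of 4 passing and 1 at an unadjusted p under 0.05. They summed to 123.6 and 85.5 FPKM in Control and 38.7 to 125.8 in the AOM/DSS libraries. The highest sum was in Model replicate 1, which also held the highest Ndufa4l2 (10.6 FPKM) and Cox4i2 (5.74 FPKM). A link between these was not tested. No list of these had a marker at 0 in every library. Their part in the members' decrease was not tested.

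Aspirin and curcumin were then set against Model. In ASA against Model 0 of 81 members passed in limma and 1 had an unadjusted p under 0.05, where 0.0142% of all tested genes passed; 79 members had a negative difference, with a median of -0.18. The member with the smallest p was Ndufb5, a membrane-arm subunit of complex I, with 104 and 92.2 FPKM in Model and 66.0 and 76.3 in ASA (-0.46 ± 0.19 SE, limma adjusted p = 1.00). The 2 groups did not overlap for Ndufb5, but the difference did not survive adjustment. Next was Cox7a2l, with 205 and 237 FPKM in Model and 179 and 184 in ASA (-0.28 ± 0.19 SE, limma adjusted p = 1.00).

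In CUR against Model 0 members passed in limma and 2 had an unadjusted p under 0.05, where 0.00711% of all tested genes passed. The median difference was 0.26 with CUR replicate 0 and -0.04 without it. Cox7a1 had the smallest p, with 43.2 and 35.6 FPKM in Model and 82.6 and 51.9 in CUR (0.73 ± 0.26 SE, limma adjusted p = 0.934). Ndufa6, a peripheral-arm accessory subunit of complex I, had 257 and 229 FPKM in Model and 341 and 303 in CUR (0.40 ± 0.16 SE, limma adjusted p = 0.934). For these 2 genes both CUR libraries were above both Model libraries, with an unadjusted p of 0.0232 for Cox7a1 and 0.0368 for Ndufa6, and neither passed after adjustment over all tested genes.

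In ASA+CUR against Model 0 members passed in limma and 2 had an unadjusted p under 0.05, where 0.0142% of all tested genes passed; 80 members had a negative difference, with a median of -0.32. Cox7a2l had 205 and 237 FPKM in Model and 184 and 130.3 in ASA+CUR (-0.51 ± 0.19 SE, limma adjusted p = 0.463). Ndufs5, an accessory subunit, had 105 and 108 FPKM in Model and 75.5 and 70.7 in ASA+CUR (-0.54 ± 0.23 SE, limma adjusted p = 0.486). The 3 treatment comparisons share the Model libraries, and no subunit gene passed the adjusted threshold in any of them.

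The combination was also set against each agent alone. Against ASA, 0 members passed in limma and 0 had an unadjusted p under 0.05, and 0% of all tested genes passed; the median was -0.13. Ndufa8 had the smallest p there (-0.33 ± 0.25 SE, limma adjusted p = 1.00), followed by Ndufs3 (-0.23 ± 0.18 SE, limma adjusted p = 1.00). Against CUR, 0 members passed in limma, again with 0% of all tested genes, but 45 of 81 were lower at an unadjusted p under 0.05, where 8.31% of all tested genes were, and the median was -0.59. Ndufa6 had 211 and 192 FPKM in ASA+CUR and 341 and 303 in CUR (-0.67 ± 0.16 SE, limma adjusted p = 0.28), and Ndufs5 had 75.5 and 70.7 against 173 and 106 (-0.88 ± 0.23 SE, limma adjusted p = 0.292). This comparison depended on single CUR libraries: the median was -0.59 with both and -0.26 without CUR replicate 0.

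Each treated group was also compared with Control, sharing the 2 Control libraries with the comparison above. In ASA 62 of 81 members fell and 0 rose, where 12.7% of all tested genes fell and 9.78% rose; 0 members were higher at an unadjusted p under 0.05. The median was -0.95. Cox7a1 (-2.50), Ndufb5 (-1.35), Ndufb10 (-1.34), Sdhb (-1.23) and Ndufa6 (-1.05) had the smallest p, with limma adjusted p from 0.000768 to 0.00517. In ASA+CUR 70 of 81 fell and 0 rose, where 16.4% of all tested genes fell and 13.1% rose; 0 members were higher at an unadjusted p under 0.05. The median of -1.11 was the lowest of the 4 groups, and the members' summed FPKM was 46.2% of the Control mean. Cox7a1 (-2.34), Ndufb10 (-1.47), Sdhb (-1.38), Ndufa1 (-1.34) and Ndufa6 (-1.12) led there, with limma adjusted p from 0.000823 to 0.00279. Leaving out a single library of the 2 groups compared lowered both counts, and leaving out CUR replicate 0, a library of another group, raised both.

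In CUR 13 of 81 members fell against Control and 0 rose, where 8.34% of all tested genes fell and 6.67% rose; 0 members were higher at an unadjusted p under 0.05. The median was -0.54. The 5 with the smallest p were Cox7a1 (-1.55), Ndufs1 (-1.04), Sdha (-0.88), Sdhb (-0.86) and Uqcrc2 (-0.83), with limma adjusted p from 0.00733 to 0.0163. Without CUR replicate 0 the members' median was -0.84. The number of members that passed also depended on single libraries. Uqcrc2, a core protein of complex III, had 283 and 297 FPKM in Control and 165 and 161 in CUR, so both CUR libraries were alike for it. For Cox6b1, in contrast, CUR replicate 0 had 1101 FPKM and CUR replicate 1 had 621, against 1115 and 1028 in Control.

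Within CUR replicate 0 the subunit genes differed by transcript length. Members there had a median difference from Control of -0.05 below 500 bases (12 genes), -0.05 from 500 to 700 (26 genes), -0.22 from 700 to 1000 (19 genes) and -0.48 from 1000 bases up (24 genes). In CUR replicate 1 the same bins gave -0.89, -0.80, -0.83 and -0.84. Across the 81 genes the difference between the CUR replicates had a Spearman rho of -0.54 with length, as a description across genes of 2 libraries. Genes other than the subunits were also higher in CUR replicate 0 the shorter their transcripts: with a mean log2 value over 4, their medians in the 4 bins were 0.78, 0.39, 0.30 and 0.05. Against genes of like length, the subunits were thus lower in CUR replicate 0 in all 4 bins.

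**Figure D5:**
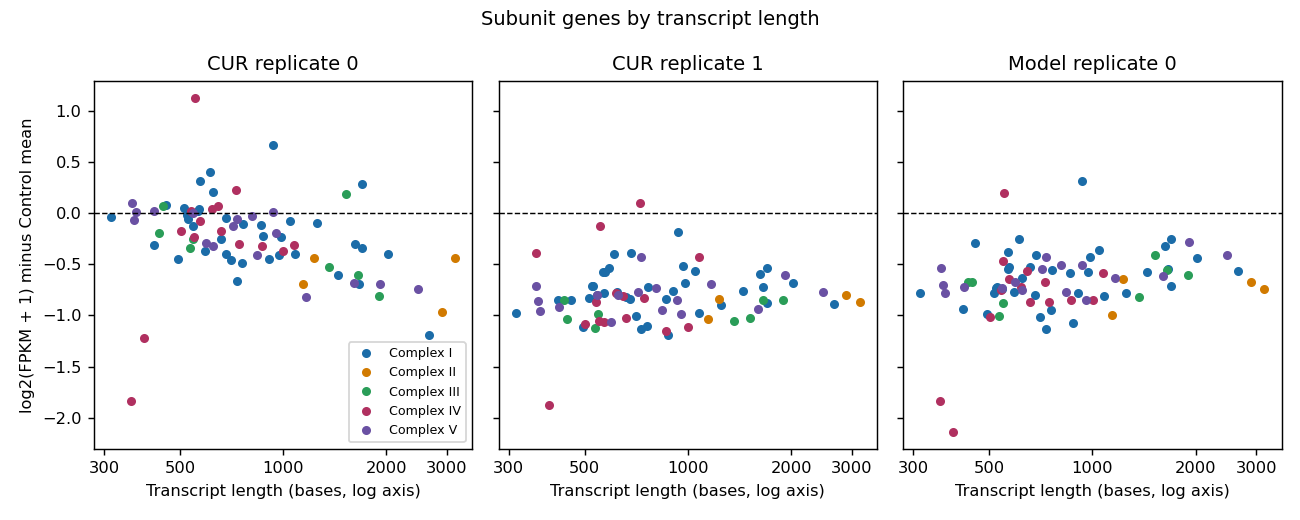
Difference from the Control mean in log2(FPKM + 1) against transcript length (log axis) for the 81 tested subunit genes in CUR replicate 0, CUR replicate 1 and Model replicate 0, colored by complex. In CUR replicate 0 genes below 700 bases lie around -0.05 and those from 1000 bases up around -0.48; in CUR replicate 1 all bins lie between -0.80 and -0.89.

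When the trend with length was taken out of each library, an alternative chosen after seeing the data, the 4 groups came closer together. The members' medians against Control were then -0.78 for Model mice, -0.83 for ASA, -0.68 for CUR and -0.86 for the combination. The counts of members that fell were 67, 69, 58 and 71 of 81, and 0 rose in each. Of all 13791 genes tested this way, 1514, 1931, 1411 and 2412 fell in the same order of groups, and 1100, 1490, 1051 and 1910 rose. By complex in Model, 31 of 37 genes then fell in complex I, 4 of 4 in II, 7 of 8 in III, 10 of 15 in IV and 15 of 17 in V. The cytosolic ribosome list, not used to draw the trend, had a median of -0.04 in Model with 0 of 67 passing. Its median against Control was -0.19 in ASA with 5 lower, -0.02 in CUR with 0 lower, and -0.19 in ASA+CUR with 4 lower. Against Model, 0 members passed in any treated group with the trend removed, with medians of -0.04 for ASA, 0.14 for CUR and -0.07 for the combination.

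Across the 4 comparisons with Control as first fitted, 13 members fell in all 4. They were Ndufa9, Ndufb10, Ndufs1 and Ndufs7 of complex I, Sdha, Sdhb and Sdhc of complex II, Uqcrc1, Uqcrc2 and Uqcrfs1 of complex III, Cox7a1 of complex IV, and Atp5c1 and Atp5pb of complex V. Another 11 passed in none: Ndufa4, Ndufa4l2, Ndufa12, Ndufb2, Ndufb7 and Ndufs4 among those named for complex I, Uqcrq, Cox4i2, Cox6b2, Atp5b and Atp5g3. The 4 comparisons share their Control libraries and the estimate of the spread. How many of all tested genes fell in all 4 or passed in none was not counted, so these counts only describe the members. Atp5b, the catalytic subunit of the ATP synthase head, had the highest Control mean of complex V at 1338 FPKM. The levels per length of the tested genes in Control ran from 2.20 FPKM (Ndufa4l2) to 1389 FPKM (Cox4i1), with medians of 196 FPKM in complex I, 286 in II, 530 in III, 573 in IV and 633 in V.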

How the data were processed

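RNA-seq libraries of 10 mouse colon samples (5 groups of 2) were compared. The deposited table gives FPKM per RefSeq transcript and library; per the submitters' processing notes, which name tools without their order, the authors used Cuffdiff, Bowtie2 2.1.0.0, TopHat2 2.0.9 and bcl2fastq 2.17.1.14 with builds mm10 and GRCm38. The annotation version, the handling of reads with several matches and the read depth were not given in the sources used here, so no counting interval could be computed. FPKM divides by transcript length, so values depend on the length model used for each library.

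Of 30073 transcripts 29443 were named through RefSeq and 179 through GENCODE; 451 stayed unnamed. FPKM were summed per gene, the 14061 genes that reached 1 FPKM in 2 or more libraries were kept, and log2(FPKM + 1) was fitted with limma 3.58.1 in R 4.3.3. One fit held a mean for each group, all 10 libraries (5 residual degrees of freedom) and a variance trend, with two-sided tests, Benjamini-Hochberg adjustment over all tested genes and a threshold of 0.05. Fold changes on this scale understate low genes. The fit was checked on simulated data. Members and gene lists were chosen with earlier results of these data known. Genes were named by rule: in each complex the 3 lowest and the 1 highest in Model against Control, isoform families, the Sdh genes, up to 5 called members by p in each other comparison or the 2 with the smallest p where none passed, members not tested, and up to 3 genes by p in each list. Others were added after their values were seen. Rps19bp1 and Rps23rg1 were kept out of the cytosolic ribosome list; Muc2 and Cd68 were not analysed here. Alternatives were another pseudocount (0.1), no filter, median-ratio scaling, no variance trend, the highest transcript only, a replicate block, leaving out each library, and, added after seeing the data, removal of each library's trend with transcript length (lowess span 0.3, 13565 genes that are neither subunits nor ribosomal). Promoters and gene positions came from RefSeq on GRCm38.p6.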

Additional observations from a re-analysis of the deposited data

How the results depend on the processing

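With 2 libraries a group, single libraries set the counts. The share of all tested genes that passed in fits without a library is not given here, so their counts only show that dependence. Leaving out 1 library of the 2 groups compared gave 1 to 19 lower and 0 to 2 higher members in Model against Control (2 higher without Model replicate 0), against Control 6 to 37 lower with aspirin, 0 to 54 with curcumin and 19 to 32 with both, and 0 to 46 lower in ASA+CUR against CUR. The median of complex II in Model then ran from -0.96 to -0.71 and that of complex V from -0.95 to -0.63. Removing the length trend gave 67 lower members in Model and 58 in CUR, where 1514 and 1411 of 13791 tested genes fell. Leaving out a library turned signs for Cox4i2 (from 1.04 without Model replicate 0 to -0.67 without Model replicate 1) and Cox6b2 (from 0.43 without Control replicate 0 to -0.091 without Control replicate 1). Cox4i2 passed as higher without Model replicate 0, as did Ndufa4l2, and neither passed with all libraries. Leaving out a library of another group moved the Model against Control count too, to 66 without either CUR library and 17 without either ASA+CUR library. Another pseudocount, no filter, median-ratio scaling, no variance trend and the highest transcript kept each count of members called within 1.5 times. The replicate number was not part of the main fit. Deviations of same-numbered libraries correlated at -0.21 to 0.33 between groups. With 2 libraries a group this cannot show whether the numbers mark a shared effect. With the number as a replicate block, 40 members were lower in Model against Control, 68 with aspirin, 17 with curcumin and 75 with both. Over the named genes 594 values kept their call, 17 gained it and 80 lost it. The cause was not tested. The depth limit is unknown, since the files hold no counts.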
